A study of Mus musculus with 10 samples.

Results

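The matrix metalloproteinases (Mmp), the membrane-bound disintegrin metalloproteinases (Adam), the secreted Adamts proteases and the tissue inhibitors of metalloproteinases (Timp) were followed in skin from C57BL/6 mice with MC903 dermatitis. Members were the rows of the gene table whose symbol carries one of these family names followed by a number, with an a or b allowed after an Mmp number. This gave 64 of 19175 genes, of which 21 were Mmp, 4 Timp, 20 Adam and 19 Adamts genes. The 10 libraries were poly(A) RNA of skin, 5 labelled with the genotype basophils VAMP7 CKO, called CKO here, and 5 labelled basophils VAMP7 Flox, called Flox, whose treatment field reads WT. Both groups belong to the MC903 model, so neither is untreated skin. MC903 is calcipotriol, a vitamin D analogue that causes type 2 inflammation when put on skin. The sources used here do not give the Cre line behind the conditional knockout, the age of the mice or the time of sampling. They also do not say that the libraries of a group come from different mice, so a p-value reflects the spread of these libraries, which may be technical.

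Matrix metalloproteinases are zinc enzymes, made as inactive precursors, that cut collagens, elastin, laminins and other matrix proteins and also process cytokines. In inflamed or wounded skin they come from fibroblasts, keratinocytes at the wound edge, macrophages and neutrophils. Adam proteases release the extracellular parts of membrane proteins such as growth factor precursors, Adamts proteases trim procollagens and large proteoglycans, and Timp proteins block the active enzymes. Transcript levels do not measure how much precursor is activated or inhibited.

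Values were deposited as FPKM, which are scaled to transcript length and library total, and summed to 525369 to 581022 FPKM per library. The number of reads behind them is unknown. Vamp7, the targeted gene, ranged from 17.3 to 19.2 FPKM among the CKO libraries and from 18.1 to 22.5 among the Flox libraries. The groups overlapped, and since other skin cells express Vamp7, whole skin does not check the labels. All 10 listed keratinocyte markers were tested and summed to 5281 to 7463 FPKM in CKO against 5274 to 7559 in Flox, so the libraries carry the RNA of epidermis. Summed basophil markers were at 144 to 285 FPKM in CKO against 388 to 454 in Flox, and summed skeletal muscle markers at 282 to 1096 and 174 to 310.2. CKO replicate 1 was lowest of its group in the first and highest in the second. In bulk skin, fewer cells of a type and less RNA per cell cannot be told apart.

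A small number of genes made up most of each family's transcripts. Mmp2, Mmp3 and Mmp14 held 76.0% of the summed Mmp FPKM, Timp2, Timp1 and Timp3 held 98.6% of the Timp sum, and these 6 genes were the only members above 100 FPKM in mean. Mmp2 at 297 FPKM in mean over all libraries was the most abundant member. Mmp2 and Mmp3 overlapped in level, with 229 to 361 FPKM for Mmp2 and 174 to 372 for Mmp3. The Adam genes were led by Adam9 at 47.1 to 61.5 FPKM, followed by Adam8, Adam10 and Adam15, and the ranges of these 4 genes overlapped. The Adamts genes were led by Adamts2 at 35.4 to 48.6 FPKM and Adamts1 at 20.6 to 42.5. Of the 64 members, 42 passed the filter on low values (1 FPKM or more in 5 or more libraries) and could be tested, 16 Mmp, 4 Timp, 11 Adam and 11 Adamts genes. The other 22 had means of 0.003 to 0.799 FPKM and no library above 1.05. Among them were the enamel protease Mmp20, listed at 0 to 0.01 FPKM, Adam2 and Adam18, known from sperm, at 0 to 0.04, and Adamts13, the von Willebrand factor protease, at 0 to 0.08.

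**Figure D1:**
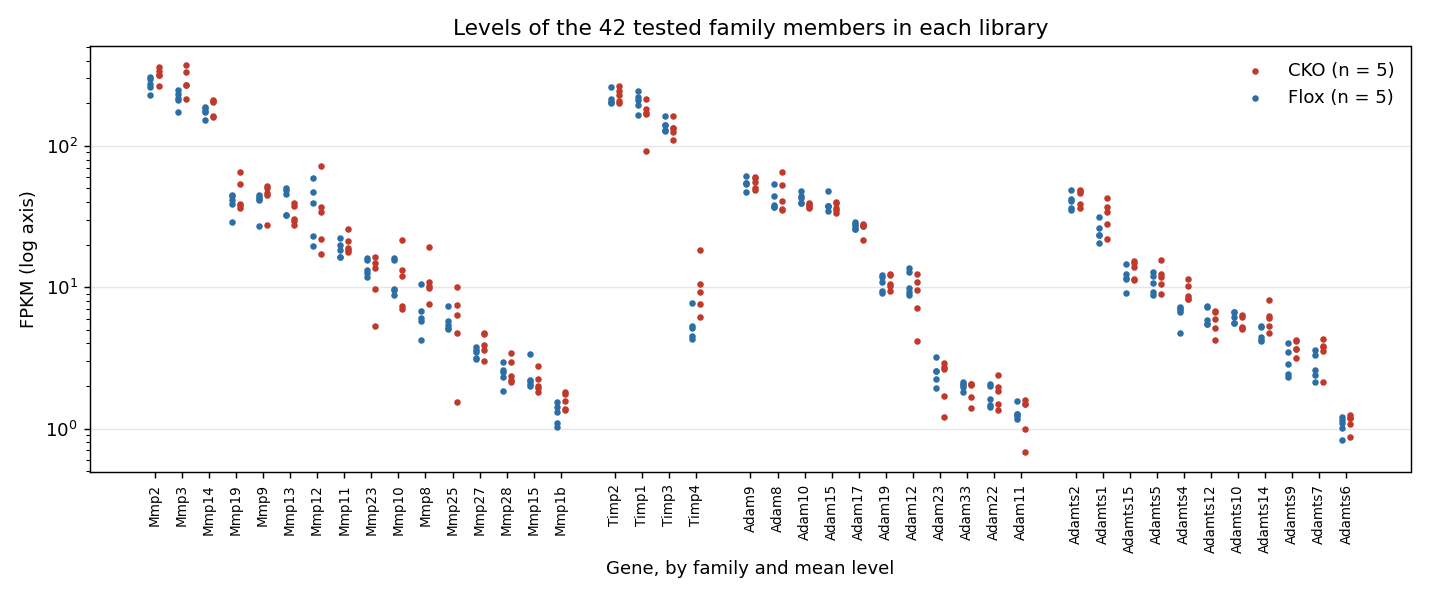
FPKM of the 42 tested members on a log axis, ordered by family and by mean level, with 1 point per library (red CKO, blue Flox, n = 5 each). Mmp2, Mmp3, Mmp14, Timp1, Timp2 and Timp3 lie mostly above 100 FPKM, and Mmp12 spans 17.3 to 72.4 FPKM.

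No member passed the test of CKO against Flox. With limma on log2(FPKM + 1), adjusted over all 13186 genes tested, 0 of 42 members were higher at an adjusted p under 0.05 (0.0455% of all genes tested were) and 0 were lower (0.0607% of all genes tested were), while 0.106% of all genes tested passed in either direction. The lowest adjusted p of a member was 0.138 (limma), that of Adamts4. At an unadjusted p under 0.05 in limma, 6 members were on the higher side (4.78% of all genes tested) and 1 on the lower side (10.3% of all genes tested). The 7 members together are 16.7% of those tested, near the 15.1% over all genes, so the pooled count does not set these families apart. By direction the members leaned the other way from all genes, with 6 of 42 higher and 1 of 42 lower. This split was not tested. A positive log2 fold change was seen for 25 of 42 members (59.5%) and for 39.5% of all genes tested, a difference that was not tested. The median log2 fold change was 0.053 over the members and -0.027 over all genes tested.

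By family, 9 of 11 Adamts genes and 10 of 16 Mmp genes had a positive log2 fold change, with medians of 0.16 and 0.11. Of the Timp genes 2 of 4 were positive (median 0.0069), and of the Adam genes 4 of 11 (median -0.049). With 1 library left out the medians ranged from 0.053 to 0.16 for Mmp, 0.11 to 0.24 for Adamts, -0.044 to 0.068 for Timp and -0.075 to -0.0058 for Adam, so the Timp median had no stable sign. These counts describe the families and were not tested. In size, 2 of 42 members exceeded 0.5 on the log2 scale, Timp4 and Mmp8, a share that was not counted over all genes. The median absolute log2 fold change was 0.13 over the members and 0.080 over all genes tested. The median SE of a member's log2 fold change was 0.12, against 0.0775 over all genes tested. Summed Mmp FPKM were 831 to 1271 in CKO and 769 to 986 in Flox, summed Timp FPKM 507 to 601 and 515 to 639. The ratio of these sums was 1.93 ± 0.334 in CKO (SD, n = 5) and 1.57 ± 0.0697 in Flox, with CKO replicates 4 and 5 at 1.53 and 1.68 and the Flox libraries at 1.49 to 1.66.

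**Figure D2:**
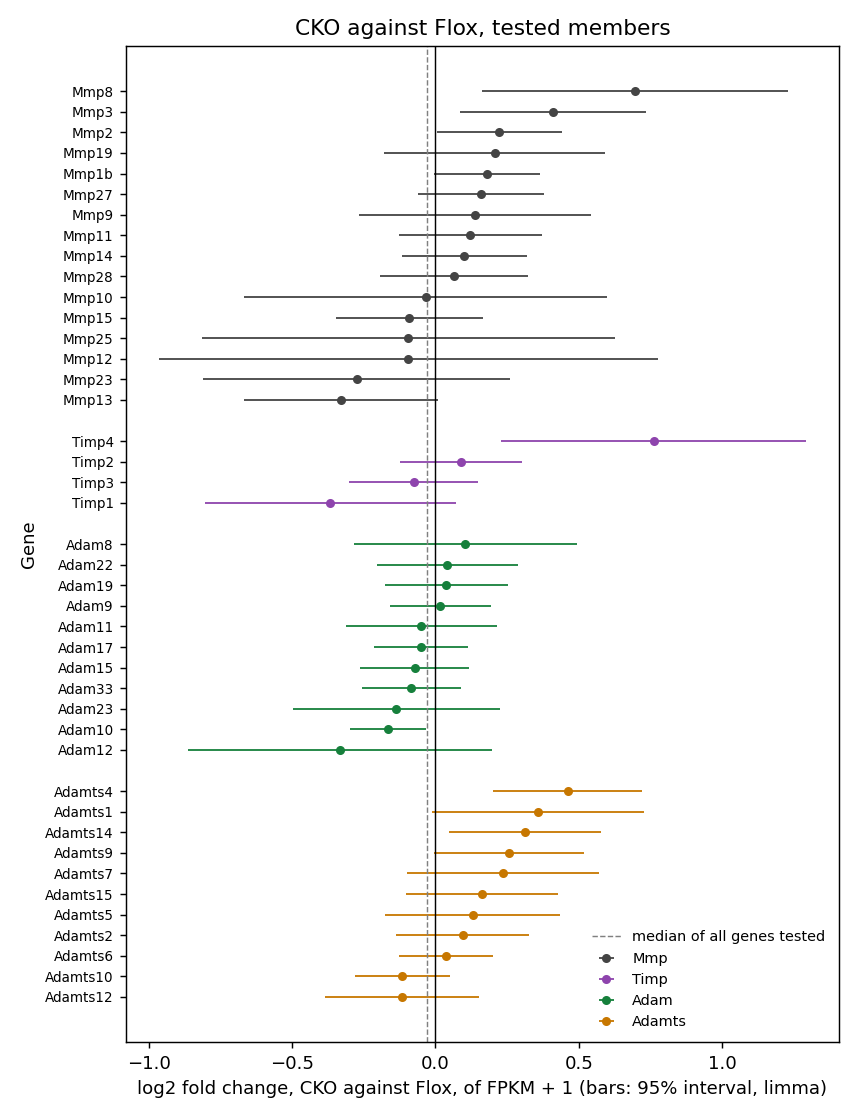
Log2 fold change of FPKM + 1, CKO against Flox, for the 42 tested members by family, with 95% intervals from limma; the dashed line is the median of all genes tested (-0.027). Intervals of 7 members leave out 0 before adjustment, Mmp8, Mmp3, Mmp2, Timp4, Adamts4 and Adamts14 above and Adam10 below.

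Of the Mmp genes, 9 in the table lie side by side on chromosome 9, with no other protein-coding gene between them in the RefSeq annotation of GRCm38.p6. In chromosome order they are Mmp13, Mmp12, Mmp1b, Mmp3, Mmp1a, Mmp10, Mmp8, Mmp27 and Mmp20. Among them are genes of collagenases, stromelysins and macrophage elastase, and many genes of this type are known to be induced through AP-1, the Fos and Jun family of transcription factors. The last 100 bases before the annotated starts of 6 of them are shown, 5′ to 3′. Those of Mmp13, Mmp3, Mmp1a, Mmp10 and the second start of Mmp12 hold an AP-1 motif match. Those of Mmp8 and the first start of Mmp12 hold neither an AP-1 nor a TATA match. Capitals mark matches to the AP-1 motif TGANTCA and to the TATA motif TATAAA. Mmp12 has a pair of annotated starts.
Mmp13, chr9:7272414-7272513, + strand: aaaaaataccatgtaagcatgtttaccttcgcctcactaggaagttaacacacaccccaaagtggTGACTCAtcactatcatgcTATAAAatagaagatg
Mmp12 (first start), chr9:7344297-7344396, + strand: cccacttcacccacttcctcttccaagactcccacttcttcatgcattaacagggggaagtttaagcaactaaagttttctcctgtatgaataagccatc
Mmp12 (second start), chr9:7347274-7347373, + strand: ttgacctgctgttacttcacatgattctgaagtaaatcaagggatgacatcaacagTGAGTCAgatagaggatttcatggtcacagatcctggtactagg
Mmp3, chr9:7445722-7445821, + strand: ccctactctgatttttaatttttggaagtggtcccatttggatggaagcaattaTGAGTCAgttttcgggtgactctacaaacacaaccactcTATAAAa
Mmp1a, chr9:7464041-7464140, + strand: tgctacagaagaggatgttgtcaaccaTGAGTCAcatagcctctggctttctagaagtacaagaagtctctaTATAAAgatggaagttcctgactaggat
Mmp10, chr9:7502242-7502341, + strand: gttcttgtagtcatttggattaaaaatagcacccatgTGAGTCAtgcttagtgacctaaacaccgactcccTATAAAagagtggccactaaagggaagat
Mmp8, chr9:7558329-7558428, + strand: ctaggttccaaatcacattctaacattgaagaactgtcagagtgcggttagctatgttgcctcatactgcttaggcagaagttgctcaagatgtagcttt

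In the 250 bases before the start, RefSeq windows were given for 38 of the 64 members. TGANTCA, which reads the same on both strands, was found for 7 of the 9 clustered genes and for 1 of the 29 other members with a window, Adam19. Over all 32851 windows of this length the share was 6.75%, and counted by gene, with a match in any of a gene's windows, it was 7.82% of 27025 genes. The clustered genes with a match were Mmp10, Mmp12, Mmp13, Mmp1a, Mmp1b, Mmp20 and Mmp3, and its first base lay 35 to 95 bases before the start. TATAAA, searched on both strands, was found for 6 of the 9, each of which also had TGANTCA, for 1 of the 29 others, Adamts1, and in 12.4% of all windows (14.3% of genes). The C/EBP motif TTGCNNAA, searched on both strands, was found for 5 of the 9 (Mmp10, Mmp12, Mmp27, Mmp3 and Mmp8), for 2 of the 29 others and in 9.56% of all windows (10.8% of genes). No match overlapped a match to another of these motifs. A match describes the letters of a window and not a bound site.

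**Figure D3:**
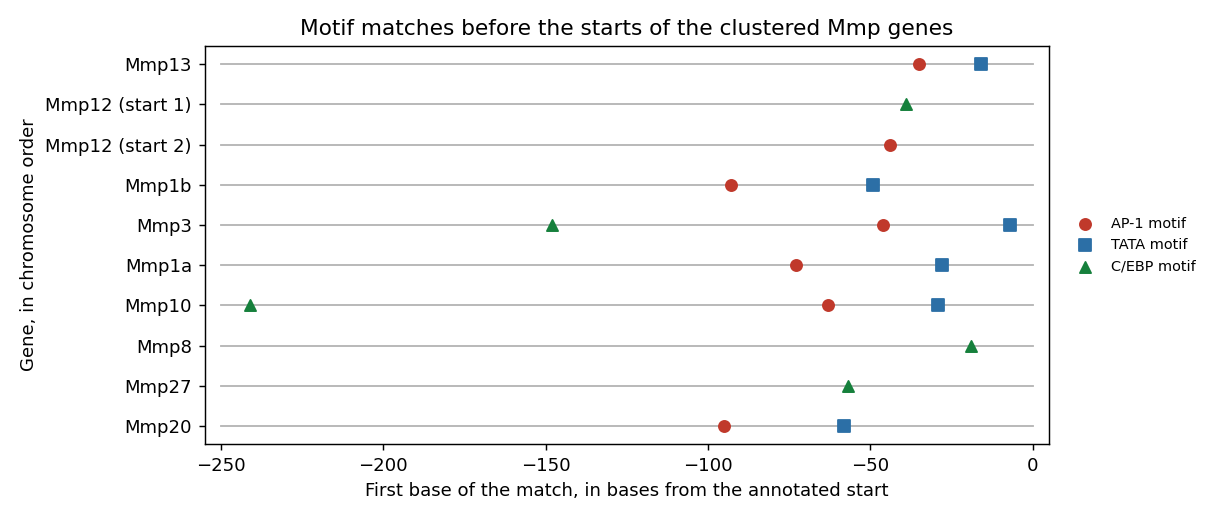
Position of the first base of each motif match, in bases before the annotated start, in the 250-base windows of the 9 clustered Mmp genes (Mmp12 has a pair of windows). AP-1 matches (red) lie 35 to 95 bases before the start and TATA matches (blue) 7 to 58 bases before it, while Mmp8 and Mmp27 show a C/EBP match (green) alone.

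Of 7 clustered genes tested, 4 had a positive and 3 a negative log2 fold change. Their median was 0.16, against 0.10 for the 9 other tested Mmp genes. The negative ones were Mmp13, Mmp12 and Mmp10, and the signs of Mmp12 and Mmp10 turned with single libraries. Whether these neighbours share a direction was not tested. Mmp3, stromelysin 1, was at 333, 372, 268, 213 and 269 FPKM in CKO replicates 1 to 5 and at 232, 174, 211, 247 and 217 FPKM in Flox replicates 1 to 5. Of the CKO libraries 4 lay above every Flox library, and replicate 4 lay within the Flox range. Mmp3 had a log2 fold change of 0.41 (SE 0.15, limma adjusted p = 0.242). Mmp10, stromelysin 2, was at 7.01 to 21.7 FPKM in CKO against 8.76 to 16.2 in Flox. The 95% interval of its log2 fold change was -0.67 to 0.60, which includes the Mmp3 value of 0.41. A difference between Mmp3 and Mmp10 was not tested.

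Mmp13, the main interstitial collagenase of mouse tissue, was at 37.8, 39.5, 30.4, 29.2 and 27.4 FPKM in CKO and at 32.5, 48.8, 32.2, 45.8 and 50.2 FPKM in Flox. The Flox libraries fell apart into a lower pair, replicates 1 and 3, and 3 higher ones, and the CKO values spanned the lower pair. For Mmp13 this gave a log2 fold change of -0.33 (SE 0.15, limma adjusted p = 0.344). Mmp12, the macrophage elastase, had the largest SE of the tested members (0.39 on the log2 scale), at 17.3, 72.4, 36.9, 34.2 and 22.02 FPKM in CKO and 19.6, 46.8, 23.0, 58.8 and 39.2 in Flox. The 95% interval of its log2 fold change was -0.96 to 0.78. Summed macrophage markers lay between 3580 and 4454 FPKM in CKO and between 3685 and 4249 FPKM in Flox. Of the 10 markers, 5 had a positive and 5 a negative log2 fold change. Among them Adgre1 was at 26.6 to 39.2 FPKM in CKO against 39.99 to 55.8 in Flox (limma adjusted p = 0.116). Its groups did not overlap, as for 3% of all genes tested in this direction.

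Mmp8, the collagenase of neutrophil granules, was at 10.8, 19.2, 10.2, 9.83 and 7.61 FPKM in CKO and at 4.20, 5.74, 6.77, 10.5 and 6.05 FPKM in Flox. CKO replicate 2 stood above all others, and Flox replicate 4 lay within the CKO range. Mmp8 had a log2 fold change of 0.70 (SE 0.24, limma adjusted p = 0.231), which was 0.51 without CKO replicate 2. Of the neutrophil markers, 7 of 10 were tested and 6 of these 7 had a positive log2 fold change. Their summed level was 3553 to 8293 FPKM in CKO against 2807 to 4823 in Flox, no marker was at 0 in all libraries, and it was highest in CKO replicate 2, the library with the highest Mmp8. CKO replicate 1 had the lowest neutrophil sum of its group and the second highest Mmp8. Most of this sum was S100a8 and S100a9, which inflamed keratinocytes are also known to express, at 4338 and 3527 FPKM in CKO replicate 2. On the log2 scale the neutrophil receptors differed by 0.087 (SE 0.29, Csf3r) and -0.080 (SE 0.25, Cxcr2). Other tested markers differed by 0.71 (SE 0.18, Il1r2), 0.42 (SE 0.31, Retnlg) and 0.15 (SE 0.26, Mrgpra2b). Retnlg was highest in CKO replicate 2 (64.8 FPKM) and second highest in CKO replicate 1 (43.6 FPKM), as was Mmp8. Each other tested marker (S100a8, S100a9, Csf3r, Cxcr2, Il1r2 and Mrgpra2b) had its lowest CKO value in CKO replicate 1. The part of the neutrophil markers in the Mmp8 difference was not tested. Mmp25, a membrane-anchored protease of leukocytes, had 1.53 FPKM in CKO replicate 1, while CKO replicates 2 to 5 ranged from 4.71 to 10.03 FPKM and the Flox libraries from 5.09 to 7.38, and its log2 fold change turned from -0.094 to 0.23 without that library.

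Mmp1b and Mmp1a, mouse counterparts of the human interstitial collagenase MMP1, are close copies of each other, so their values are uncertain. Mmp1b also shares up to 157 exon bases with Mmp12 on the opposite strand in the GENCODE M21 annotation, and the use of strand in counting is not given. Of the 42 tested members, 14 share exon bases with another gene in that annotation. Mmp1b was at 1.36 to 1.80 FPKM in CKO against 1.02 to 1.54 in Flox. Mmp1a, which was too low to be tested and was singled out after its values were seen, was at 0.13 to 0.39 FPKM in CKO against 0.05 to 0.11 in Flox, without overlap. Of the genes tested, 1.24% did not overlap in this direction, and the share among genes as low as Mmp1a was not counted. Mmp27 had a log2 fold change of 0.16 (SE 0.0997).

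Among the gelatinases, Mmp2, a product mainly of fibroblasts, was at 319.6, 361, 315, 267 and 336 FPKM in CKO and at 273, 229, 262, 296 and 309 FPKM in Flox. Of the CKO libraries 4 lay above every Flox library and replicate 4 below 3 of them, with a log2 fold change of 0.22 (SE 0.099, limma adjusted p = 0.321). Summed fibroblast markers were at 3864 FPKM in CKO replicate 1, 4969 to 6179 in CKO replicates 2 to 5 and 4967 to 6332 in Flox. Of the 10 markers 8 had a negative log2 fold change, and Dcn (0.12) and Pdgfra (0.092) a positive one. The part of fibroblast markers in the Mmp2 difference was not tested. Mmp9, the gelatinase of leukocytes and keratinocytes, was at 50.0, 52.2, 45.0, 27.7 and 46.5 FPKM in CKO and at 43.8, 27.1, 41.9, 41.6 and 45.0 FPKM in Flox. Each group held a single low library, CKO replicate 4 and Flox replicate 2, and the log2 fold change was 0.14 (SE 0.18). It was 0.29 without the first and 0.0077 without the second. Mmp14, the membrane protease that activates the Mmp2 precursor, was at 159.8 to 213 FPKM in CKO against 152 to 188.5 in Flox, with a log2 fold change of 0.10 (SE 0.099).

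The remaining tested Mmp genes overlapped widely between the groups. Mmp19 was at 36.4 to 65.8 FPKM in CKO against 29.1 to 44.9 in Flox. Mmp11, stromelysin 3, had a log2 fold change of 0.12 (SE 0.11), Mmp28, an epithelial family member, 0.065 (SE 0.12), and the membrane-type protease Mmp15 -0.091 (SE 0.12). Mmp23 had 5.32 FPKM in CKO replicate 1, while CKO replicates 2 to 5 ranged from 9.71 to 16.3 FPKM and the Flox libraries from 11.8 to 16.0. Its log2 fold change of -0.27 was -0.038 without CKO replicate 1.

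The inhibitors were led by Timp2, which also helps Mmp14 to activate the Mmp2 precursor, at 201 to 267 FPKM in CKO against 200.3 to 259 in Flox. Timp3, which binds to the matrix and also inhibits Adam17 and some Adamts proteases, was at 111 to 164 and 127 to 162 FPKM. Their log2 fold changes were 0.090 (SE 0.096) and -0.076 (SE 0.10). With 1 library left out they spanned 0.035 to 0.16 and -0.15 to -0.012. Timp1, the inducible and X-linked inhibitor, was at 92.6, 214, 168, 169.8 and 182 FPKM in CKO and at 221, 166, 194, 245 and 212 FPKM in Flox. CKO replicate 1 was the lowest of all libraries, and the other CKO libraries lay within the Flox range. Timp1 had a log2 fold change of -0.37 (SE 0.20, limma adjusted p = 0.419) and -0.17 without CKO replicate 1.

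Timp4, an inhibitor of more restricted expression, was at 18.4, 7.58, 6.2, 10.5 and 9.2 FPKM in CKO and at 4.31, 5.31, 7.76, 4.52 and 5.18 FPKM in Flox. Here CKO replicate 1 was the highest library, and Flox replicate 3 lay among the lower CKO values. The log2 fold change of 0.76 (SE 0.24, limma adjusted p = 0.205) was the largest of the members and was 0.55 without CKO replicate 1. Of 10 skeletal muscle markers 9 were tested, and all 9 had a positive log2 fold change, none was at 0 in all libraries, and they summed to 1096 FPKM in CKO replicate 1, where Timp4 was also highest, to 282 to 655 FPKM in CKO replicates 2 to 5 and to 174 to 310.2 FPKM in Flox. When the fit took the muscle score of a library into account, the Timp4 log2 fold change was 0.29 (limma adjusted p = 0.728). Within Flox the order was another, as replicate 3 had the highest Timp4 and the lowest muscle sum of all libraries (174 FPKM). The part of muscle in the Timp4 difference was not tested. Timp3 shares up to 1733 exon bases with Syn3, listed at 0.11 to 0.25 FPKM, on the opposite strand. Timp4 also shares up to 90 exon bases with Syn2 on the opposite strand, which was at 0.82 to 1.76 FPKM in CKO against 0.69 to 1.08 in Flox.

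Of the Adam genes 1 had an unadjusted p under 0.05 in limma. Adam10, the sheddase of Notch receptors, E-cadherin and the low-affinity IgE receptor CD23, was at 36.4, 38.9, 36.9, 38.4 and 39.3 FPKM in CKO and at 39.4, 44.3, 39.5, 42.6 and 48.3 FPKM in Flox. The groups did not overlap, as for 3% of all genes tested in this direction, but the highest CKO and the lowest Flox library were 39.29 and 39.36 FPKM. Adam10 had a log2 fold change of -0.16 (SE 0.060, limma adjusted p = 0.250). Adam17, the sheddase of TNF and amphiregulin, was at 21.4, 27.4, 28.2, 27.1 and 27.1 FPKM in CKO and at 27.0, 25.7, 25.8, 28.2 and 28.9 FPKM in Flox. Apart from CKO replicate 1, every library lay between 25.7 and 28.9 FPKM, and the log2 fold change of -0.049 became 0.019 without it. Adam17 shares up to 311 exon bases with Iah1 on the opposite strand.

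Adam8, a leukocyte member, was at 35.4 to 65.4 FPKM in CKO against 36.9 to 54.1 in Flox, with the highest value in CKO replicate 2. Of the broadly expressed membrane proteases, Adam9 differed by 0.018 (SE 0.080) and Adam15 by -0.072 (SE 0.087) on the log2 scale. Adam12, a protease of mesenchymal cells, had 4.13 FPKM in CKO replicate 1, while CKO replicates 2 to 5 ranged from 7.08 to 12.3 FPKM and the Flox libraries from 8.83 to 13.7, and its log2 fold change of -0.33 was -0.12 without that library. For Adam19 the log2 fold change was 0.039 (SE 0.097), for Adam33 -0.083 (SE 0.079). Adam11, Adam22 and Adam23, which are known to lack a working catalytic site, were at 0.68 to 3.23 FPKM over all libraries, with log2 fold changes of -0.048, 0.042 and -0.14.

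The Adamts genes held the member of lowest p. Adamts4, an aggrecanase that also cuts versican, was at 11.4, 8.27, 8.31, 8.65 and 10.2 FPKM in CKO and at 7.28, 4.71, 7.13, 6.93 and 6.64 FPKM in Flox. Each CKO library lay above each Flox library, as for 1.24% of all genes tested in this direction. Adamts4 shares up to 171 exon bases with a protein-coding gene of higher level on the opposite strand. The use of strand in counting is not given, and the part of that gene in the Adamts4 values was not tested. The mean was 9.36 ± 1.38 FPKM in CKO against 6.54 ± 1.05 in Flox (SD, n = 5 each), with a log2 fold change of 0.46 (SE 0.12), an unadjusted limma p of 0.00255 and an adjusted p of 0.138. Its unadjusted p stayed under 0.05 in each of 16 alternative fits, at 0.00135 to 0.040, and its adjusted p was 0.132 to 0.532 (limma).

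Other proteoglycan-cutting members had overlapping groups. Adamts1 was at 37.2, 21.9, 28.2, 34.3 and 42.5 FPKM in CKO and at 23.4, 20.6, 26.2, 23.3 and 31.3 FPKM in Flox. Of the CKO libraries 3 lay above all Flox libraries, and the log2 fold change was 0.36 (SE 0.17, limma adjusted p = 0.345). On the log2 scale the difference was 0.26 (SE 0.12) for Adamts9, 0.16 (SE 0.12) for Adamts15 and 0.13 (SE 0.14) for Adamts5. With 1 library left out the values spanned 0.083 to 0.24 for Adamts15 and 0.033 to 0.22 for Adamts5. Adamts9 shares up to 1215 exon bases with an opposite-strand gene model.

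Of the procollagen N-proteinases, Adamts14 was at 8.15, 4.72, 5.32, 6.08 and 6.27 FPKM in CKO and at 4.41, 4.13, 5.24, 4.21 and 5.35 FPKM in Flox. CKO replicate 1 was highest, and replicates 2 and 3 lay within the Flox range. Adamts14 had a log2 fold change of 0.31 (SE 0.12, limma adjusted p = 0.264). It was 0.22 when CKO replicate 1 was left out and 0.10 when the muscle score entered the fit. Adamts2, with the same activity and the highest level of the family, was at 36.4 to 48.6 FPKM in CKO against 35.4 to 48.6 in Flox, with a log2 fold change of 0.095 (SE 0.11). Adamts10 and Adamts12 were on the lower side, at -0.11 (SE 0.075) and -0.12 (SE 0.12), and Adamts7 was at 0.24 (SE 0.15).

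**Figure D4:**
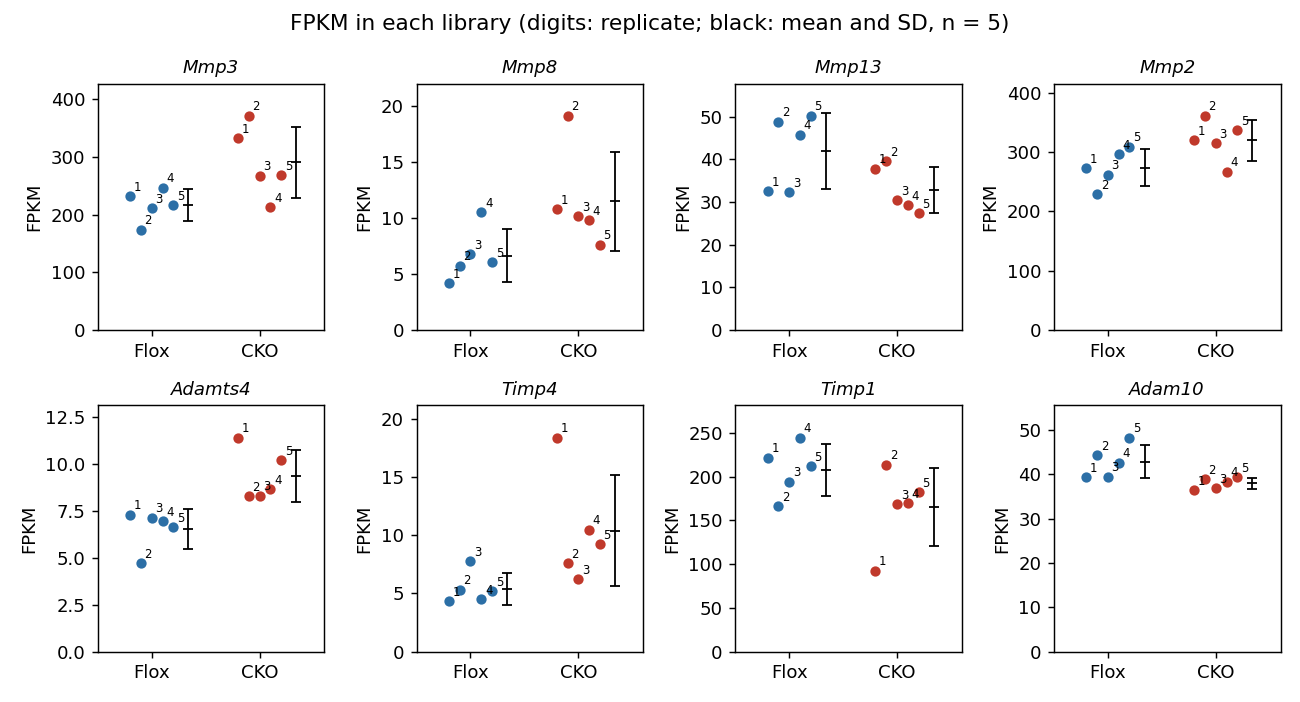
FPKM in each library for 8 members (blue Flox, red CKO, digits give the replicate, black marks the mean and SD, n = 5 each), all axes from 0. The groups do not overlap for Adamts4 and for Adam10, the latter by a margin from 39.29 to 39.36 FPKM, while the Timp4 and Timp1 differences are widest in CKO replicate 1, at 18.4 and 92.6 FPKM.

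Proteins that activate, inhibit or are cut by these proteases were followed as a list of 64 genes, of which 63 were in the table and 55 were tested. None passed (limma, adjusted p under 0.05), and 34 had a positive and 21 a negative log2 fold change. At an unadjusted p under 0.05 in limma, 10 were higher and 2 lower (together 21.8%, against 15.1% of all genes tested). Of all genes tested, 4.78% were higher and 10.3% lower at that threshold. The lowest p values were those of Areg and Ereg, ligands of the EGF receptor that are released from the membrane by Adam17. Areg was at 28.2 ± 5.81 FPKM in CKO against 18.6 ± 1.83 in Flox (SD, n = 5 each, limma adjusted p = 0.0962). Ereg was at 3.91 ± 0.503 and 2.78 ± 0.329 FPKM (SD, n = 5 each, limma adjusted p = 0.115). The groups did not overlap in either case, as for 1.24% of all genes tested in this direction. Plaur, the urokinase receptor of the plasmin system that activates Mmp precursors, was at 52.3 ± 11.8 and 32.5 ± 6.77 FPKM (limma adjusted p = 0.132), and Il6ra, whose shedding gives the soluble IL-6 receptor, at 20.5 ± 2.56 and 16.0 ± 1.70 FPKM (limma adjusted p = 0.161). These 4 genes were all higher in mean in CKO. Next by p, and named after its values were seen, was Cdh1, which encodes the Adam10 substrate E-cadherin, with 46.0 ± 3.80 FPKM in CKO against 55.7 ± 5.21 in Flox (SD, n = 5 each). It differed by -0.27 on the log2 scale (SE 0.076, limma adjusted p = 0.166). Of 25 substrates tested, 14 were positive and 11 negative, with 4 higher and 1 lower at an unadjusted p under 0.05 in limma. Among 8 tested cofactors of Adam10 and Adam17 (iRhom and tetraspanin genes and Frmd8), 4 were positive and 4 negative with a median of 0.0033, and 1 was on each side at an unadjusted p under 0.05. Among 11 activators, 6 inhibitors and 5 Adamts-like genes tested, 6, 5 and 5 were positive, with medians of 0.032, 0.15 and 0.10.

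Much of the variation among members ran between libraries of the same group. Flox replicate 5 was the highest Flox library for 24 of 42 members (57.1%), against 33.1% of all genes tested, and Flox replicate 2 the lowest for 21 of 42 (50.0%), against 23.4%. In the CKO group replicate 2 was the highest for 17 members (40.5%, all genes 15.8%) and replicate 1 the lowest for 18 (42.9%, all genes 32.2%). CKO replicate 1 and Flox replicate 2 were each the lowest of their group for 7 of the 11 Adam genes. The median absolute distance of a member from the median of the other libraries of its group was 0.31 on the log2 scale in CKO replicate 1 and 0.087 in Flox replicate 1, against 0.17 and 0.076 over all genes tested. Fibroblast markers summed to 3864 FPKM in CKO replicate 1 and to between 4969 and 6179 FPKM in CKO replicates 2 to 5. They were 6332 FPKM in Flox replicate 5, the highest of the Flox libraries, and 5120 in Flox replicate 2. The lowest Flox sum was that of replicate 3, at 4967 FPKM, which was the lowest Flox library for 3 of 42 members. The part of these markers in the members' variation was not tested.

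**Figure D5:**
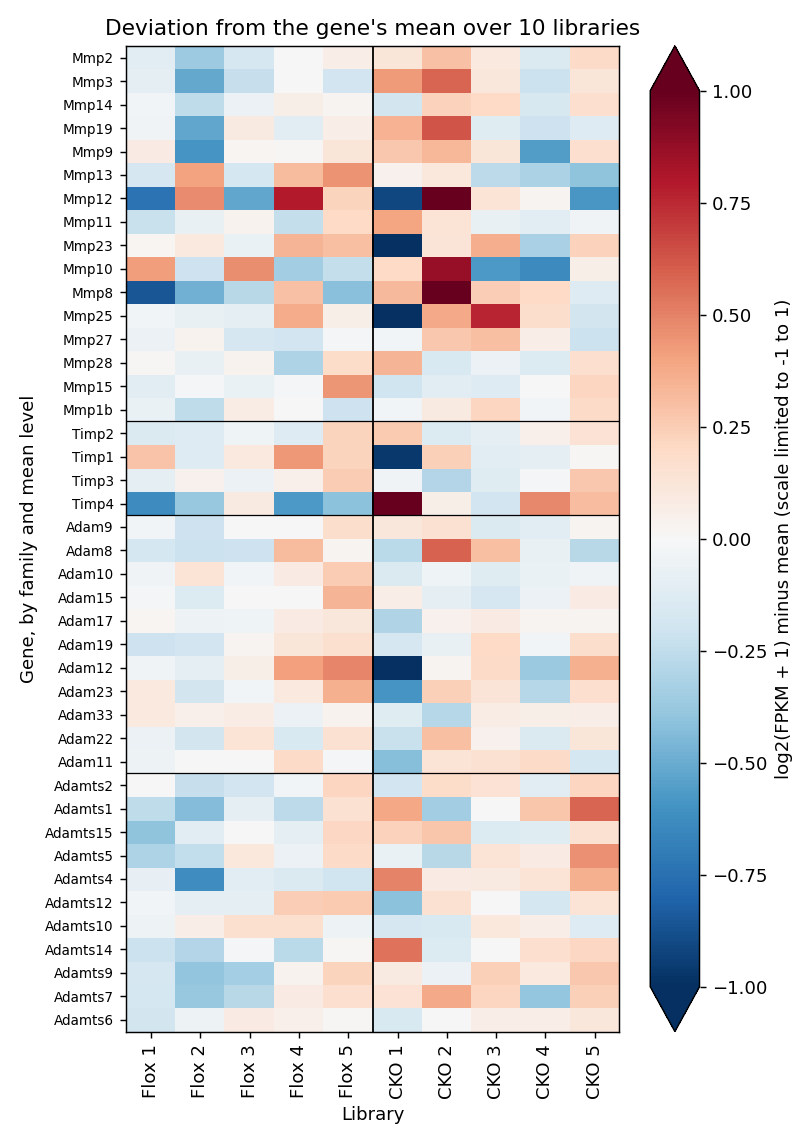
Deviation of log2(FPKM + 1) from each gene's mean over the 10 libraries for the 42 tested members, Flox libraries to the left and CKO libraries to the right of the line, with the colour scale limited to -1 to 1. CKO replicate 1 is low for Timp1, Mmp25, Mmp23 and Adam12 and high for Timp4, CKO replicate 2 is high for Mmp3, Mmp8, Mmp12 and Mmp10, and Flox replicate 2 is low for Mmp3, Mmp9 and Adamts4.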

How the data were processed

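Poly(A) RNA of mouse skin was reverse transcribed with random hexamers and sequenced single-end on DNA nanoballs, per the labels' protocols. The authors' values are FPKM, in 1 deposited table, per the file headers. The submitters' processing notes name HISAT. The sources used here give no counter, genome build, annotation, strand setting or version. Since the values are FPKM and not counts, depth is unknown and no counting interval is given. Libraries were grouped by their labels, and no value column was left out.

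Values were taken as log2(FPKM + 1) for the 13186 of 19175 genes that reached 1 FPKM in 5 or more libraries and tested with limma-trend (limma 3.58.1, R 4.3.3), two-sided, with Benjamini-Hochberg adjustment over all genes tested and a threshold of 0.05. Fold changes on this scale are too small for low genes. The members and lists were chosen with earlier results of these data known. Members named were all Timp genes, those whose groups do not overlap, 8 per direction of lowest p, the 4 most abundant of each family and 19 set by hand; others are named as examples. Promoter windows are RefSeq's (GRCm38.p6). The test was run on simulated data with known changes. Alternatives were a pseudocount of 0.1, no filter, rescaled totals, array quality weights, a replicate block and each library left out. A muscle score (mean log2(FPKM + 1) of the muscle markers) as a covariate was added after the data were seen. One gene that overlaps a member is not reported here.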

Additional observations from a re-analysis of the deposited data

Results flagged for a closer look

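Among the 33 members named by rule, 7 of 66 sets of 5 libraries held a library far from the other 4 of its group. A library counted as far where its gap to the nearest other, divided by the group's range, was above Dixon's critical value of 0.71. This rule has a nominal rate of about 1 in 20 for independent normal values. These sets of FPKM share the same libraries, and the share over all genes was not counted, so no excess can be read from the count. Timp4 passed this by the smallest margin, at 0.7101. In CKO, Adam17 was at 21.4 FPKM in replicate 1 (27.1 to 28.2 in the others) and Mmp8 at 19.2 FPKM in replicate 2 (7.61 to 10.8). In Flox, replicate 2 was low for Adamts4, at 4.71 FPKM (6.64 to 7.28), and for Mmp9, at 27.1 FPKM (41.6 to 45.0). Flox replicate 5 was high for Adam15, at 48.1 FPKM (34.4 to 37.8), and for Timp2, at 259 FPKM (200.3 to 215), and Flox replicate 3 for Timp4, at 7.76 FPKM (4.31 to 5.31). Without Flox replicate 2 the Adamts4 log2 fold change was 0.37, and without CKO replicate 2 that of Mmp8 was 0.51.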

How the results depend on the processing

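No member passed an adjusted p of 0.05 in any of 16 alternative fits. Over all genes, 6 were higher and 8 lower at that threshold. These counts were 30 and 60 with array quality weights, 2 and 6 with rescaled totals, 1 and 2 without the filter and 11 and 15 without CKO replicate 1. They were 0 and 0 with the replicate block, with the muscle score and without Flox replicate 1, 2, 3 or 5, and 1672, 1498, 1693 and 1822 genes were at an unadjusted p under 0.05 in limma in those last 4 fits. The count of 7 members at an unadjusted p under 0.05 was 11 without a filter on low values, where all 64 members were fitted. On the lower side the count of 1 became 3 without the filter, 0 with array quality weights and 1 to 3 with 1 library left out. Of the 33 named members, 20 kept their sign in all 16 fits. Signs turned with array quality weights for Adam17 (0.017), Mmp12 (0.21) and Mmp25 (0.17). With the muscle score as a covariate they turned for Adam12 (0.14), Adam17 (0.075), Adam9 (-0.013), Adamts12 (0.064), Mmp10 (0.21), Mmp12 (0.15), Mmp23 (0.25), Mmp25 (0.54), Timp1 (0.049) and Timp2 (-0.060), and the Adam median became 0.098. The Adam median was 0.0025 with array quality weights, the Timp median was -0.011 with rescaled totals and 0.033 with array quality weights, and without the filter the Mmp and Adamts medians were 0.065 and 0.044. The Mmp median was 0.23 with the muscle score. With 1 library left out the log2 fold changes spanned -0.12 to 0.0028 for Adam15, -0.075 to 0.019 for Adam17, -0.0092 to 0.086 for Adam19, -0.030 to 0.197 for Adam8, -0.031 to 0.063 for Adam9, -0.26 to 0.12 for Mmp10, -0.38 to 0.12 for Mmp12 and -0.296 to 0.23 for Mmp25. CKO replicate 1 has the highest muscle score, so this covariate and its omission are not separate. The cause of these turns was not tested. Whether the replicate numbers pair the libraries is not known. Same-number correlations were -0.21 to 0.21. Between 0 (replicate 5) and 3 (replicate 2) Flox libraries of another number correlated more with a CKO library, which cannot exclude a pairing. With a replicate block, 7 members were at an unadjusted p under 0.05 in limma and 0 passed. The members differed, as Mmp2 (limma adjusted p = 0.415, unadjusted 0.0939) and Mmp3 (limma adjusted p = 0.352, unadjusted 0.0525) missed it there, while Adamts1 (limma adjusted p = 0.238, unadjusted 0.00972) and Adamts9 (limma adjusted p = 0.302, unadjusted 0.026) were under it. Without read counts, how far depth limits the genes near 1 FPKM is unknown.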
